A study of Saccharomyces cerevisiae with 12 samples.

Results

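The yeast cell wall is a layered shell of glucan, chitin and mannoproteins that is continually cut, spliced and rebuilt as the cell grows. The genes described here are 40 of the 5449 *Saccharomyces cerevisiae* genes that the arrays measured. They were chosen by name for their known function in the wall. Earlier results of these data were known at that choice, so shares printed beside counts of these genes are descriptive. The 40 genes comprise 4 PIR proteins, 10 GPI-anchored and related wall proteins, 5 glucan elongases of the Gas family and 3 chitin-glucan transglycosylases. The rest are 5 glucanases, 3 yapsin proteases, 8 synthases or assembly factors, and 2 regulators of the wall integrity pathway.

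As background, GPI proteins are made in the secretory pathway with a lipid anchor, and many are then cut from it and joined to glucan at the cell surface. PIR proteins are bound to glucan through an alkali-sensitive bond. Gas, Crh and Scw proteins break and rejoin wall polymers, yapsins are aspartyl proteases at the cell surface, and wall stress is signalled to the kinase Slt2 and the transcription factor Rlm1, which act on many wall genes.

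The study asked how the adhesin gene *FLO11* and its regulators *MSS11* and *FLO8* alter the transcriptome, with total RNA hybridised to 12 Affymetrix Yeast Genome 2.0 arrays in 8 groups. The Σ1278b strain (MATα, with his3Δ::hisG, leu2Δ::hisG and trp1Δ::hisG beside ura3-52 per the labels, though the paper's strain list gives this genotype as MATa) gave 10 arrays and the S288c strain BY4742 (MATα, with ura3Δ0, lys2Δ0, leu2Δ0 and his3Δ1), whose *FLO8* allele is nonfunctional, gave 2. A first set held 3 Σ1278b wild types with empty vector and 3 cultures overexpressing *FLO11* from a multicopy vector under the constitutive *PGK1* promoter. A second set held 1 array each of a Σ1278b wild type with empty vector, Σ1278b with multicopy *FLO8*, Σ1278b with multicopy *MSS11*, an *mss11* deletion (mss11Δ::LEU2) with empty vector, an S288c wild type with empty vector and S288c with multicopy *MSS11*. All cultures were grown in 5 ml of synthetic medium with 2% glucose at 30 °C, and the labels place the harvest in early stationary phase while the paper places it in mid-exponential growth. Every culture carried a plasmid, the controls included. The paper lists the *FLO11* construct on a *LEU2* vector and names YEpLac195, a *URA3* vector, for *MSS11* and its controls, so between the sets vector and set cannot be told apart. In bulk RNA of this kind fewer expressing cells and less RNA per cell cannot be told apart.

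The arrays were alike in level. The median log2 signal over 5498 *S. cerevisiae* probe sets lay between 10.72 and 10.84, the background, taken as the 95th percentile of *Schizosaccharomyces pombe* probe sets, between 4.77 and 4.90, and 97.36 to 98.51% of probe sets were above it. The targeted genes followed their labels. *FLO11* was at 14.81 to 14.88 in the overexpression arrays against 11.95 to 12.27 in their wild types, *MSS11* at 12.29 in Σ1278b *MSS11* overexpression, 8.22 in its wild type and 6.87 in the deletion, and *FLO8* at 14.65 with extra *FLO8* against 10.34. Labels call the first set biological replicates, with no statement that they came from separate days. Replicates within it differed at least 2-fold at 0 to 7 probe sets a pair, while the second wild type differed from each of the first 3 at 78 to 94 probe sets. *HPF1* was the 1 wall gene that differed between the wild types of the 2 sets, in all 3 pairs. Within the first set, *PIR3* differed at least 2-fold between *FLO11* replicate 1 and both replicates 2 and 3.

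All 40 genes lay above background on all 12 arrays. The wall genes spanned about as much as other genes over the 12 arrays. The signal of 17 genes spanned under 0.5 on the log2 scale over all 12 arrays, a span that 40.41% of all probe sets shared, and that of 8 genes spanned 1 or more, against 18.88% of all probe sets. The 8 were *PIR3*, *CWP1*, *SPI1*, *YGP1*, *HPF1*, *PST1*, *YPS3* and *MKC7*. The median span was 0.59 for the wall genes and 0.58 for all probe sets, and 7 of the 40 genes were called in at least 1 of the 8 comparisons at their main thresholds, against 14.8% of all probe sets.

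**Figure D1:**
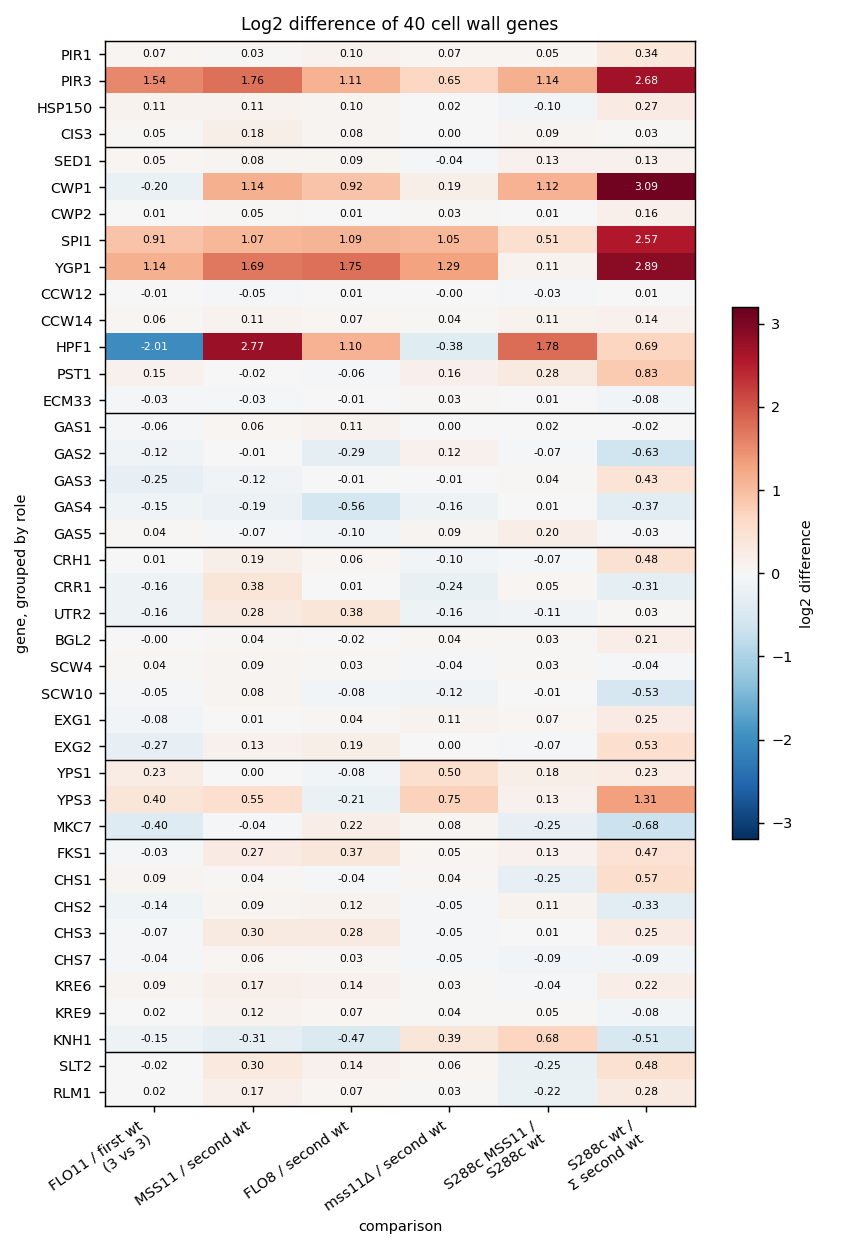
Log2 difference of each of the 40 wall genes (rows, in blocks by role) in 6 comparisons (columns), red for higher and blue for lower, with the value printed in each cell. Strong colour is held by a few rows, chiefly *PIR3*, *CWP1*, *SPI1*, *YGP1* and *HPF1*, with *CWP1* at 3.09 between the wild type strains as the highest cell and *HPF1* at -2.01 after *FLO11* overexpression as the lowest.

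*FLO11* overexpression was compared with the 3 first wild types by limma, with p-values adjusted by Benjamini-Hochberg over all 5498 probe sets. Among the wall genes 3 rose, *PIR3*, *SPI1* and *YGP1* (3 of 40, against 3.8% of all probe sets), and 2 fell, *HPF1* and *MKC7* (2 of 40, against 2.55%). The median difference over the 40 genes was -0.01, and that over all probe sets was also -0.01. The 5 genes were 1 of 4 PIR proteins, 3 of 10 GPI and related proteins and 1 of 3 yapsins. No Gas elongase, transglycosylase, glucanase, synthase or regulator passed the threshold. With a trended and robust prior in limma, 6 genes passed, with *PIR3* and *YGP1* lost (adjusted p = 0.117 and 0.0716) and *GAS3*, *UTR2* and *EXG2* gained (0.0358, 0.0358 and 0.0472). In the main fit, at an unadjusted p under 0.05 there were 12 wall genes, against 23% of all probe sets. The *FLO11* and wild type arrays did not overlap for 15 wall genes, against 29.5% of all probe sets.

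*HPF1* encodes a mannoprotein known for reducing protein haze in wine, and it had the lowest difference of the 40 genes. Its log2 signal was 11.67, 11.88 and 11.48 in the first wild types and 9.73, 9.59 and 9.67 with extra *FLO11*. The groups were separated by more than the spread within either, with a fall of 2.01 (SE 0.10, 4.04-fold, limma adjusted p = 0.000165, n = 3 each). The second wild type, however, read 9.63, inside the range of the *FLO11* arrays at -2.05 from the mean of the first wild types. With the 4 wild types as 1 control group the difference was -1.502 and the adjusted p 0.215, so the call rests on the 3 wild types of the first set.

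*SPI1* encodes a GPI wall protein that is known to be induced as cells enter stationary phase. It read 10.08, 10.46 and 10.69 in the first wild types and 11.07, 11.59 and 11.31 with extra *FLO11*. The highest wild type lay below the lowest *FLO11* array, and the rise was 0.91 (SE 0.18, 1.88-fold, limma adjusted p = 0.0317, n = 3 each). *YGP1*, a secreted glycoprotein related to sporulation-specific wall proteins and known to rise on nutrient limitation, read 11.07, 11.83 and 11.93 in wild type and 12.55, 12.93 and 12.79 with extra *FLO11*. Again the groups did not overlap, with a rise of 1.14 (SE 0.22, 2.21-fold, limma adjusted p = 0.0306, n = 3 each). These calls rest on few arrays. That of *SPI1* was lost without wild type replicate 1 or 2 or *FLO11* replicate 2 or 3, with rises of 0.74 to 0.94 and limma adjusted p of 0.0695 to 0.108. That of *YGP1* was lost without wild type replicate 2 or *FLO11* replicate 2 or 3, with rises of 1.05 to 1.25 and limma adjusted p of 0.0695 to 0.0952.

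*PIR3* read 7.72, 7.91 and 7.97 in the first wild types and 10.31, 9.15 and 8.76 with extra *FLO11*. All 3 *FLO11* arrays were above all wild types but they spread over 1.55, mostly through replicate 1. The rise was 1.54 (SE 0.35, 2.90-fold, limma adjusted p = 0.0486, n = 3 each). Without *FLO11* replicate 1 it was 1.09, and the adjusted p was above 0.05 when any 1 of the first 3 wild types or *FLO11* replicate 2 was left out, between 0.0940 and 0.147.

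The yapsins did not move together. *MKC7* read 10.69, 10.86 and 10.71 in wild type and 10.43, 10.28 and 10.34 with extra *FLO11*, groups that did not overlap, and fell by 0.40 (SE 0.06, limma adjusted p = 0.0156, n = 3 each). Without wild type replicate 2, *FLO11* replicate 2 or *FLO11* replicate 3 the fall in *MKC7* was between 0.35 and 0.40 and missed the threshold, with limma adjusted p from 0.0545 to 0.0597. *YPS1* differed by 0.23 (limma adjusted p = 0.117, n = 3 each) and *YPS3* by 0.40 with a 95% interval from -0.15 to 0.95, the arrays of *YPS3* overlapping. The 35 genes that missed the threshold were mostly bounded, since the 95% interval lay within 0.5 of 0 for 34 of them, *YPS3* being the other. Among the Gas elongases the differences ran from -0.25 for *GAS3* to 0.04 for *GAS5*, among the glucanases from -0.27 for *EXG2* to 0.04 for *SCW4*, and among the synthases and assembly factors from -0.15 for *KNH1* to 0.09 for *CHS1*. The 2 regulators were at -0.02 (*SLT2*) and 0.02 (*RLM1*).

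**Figure D2:**
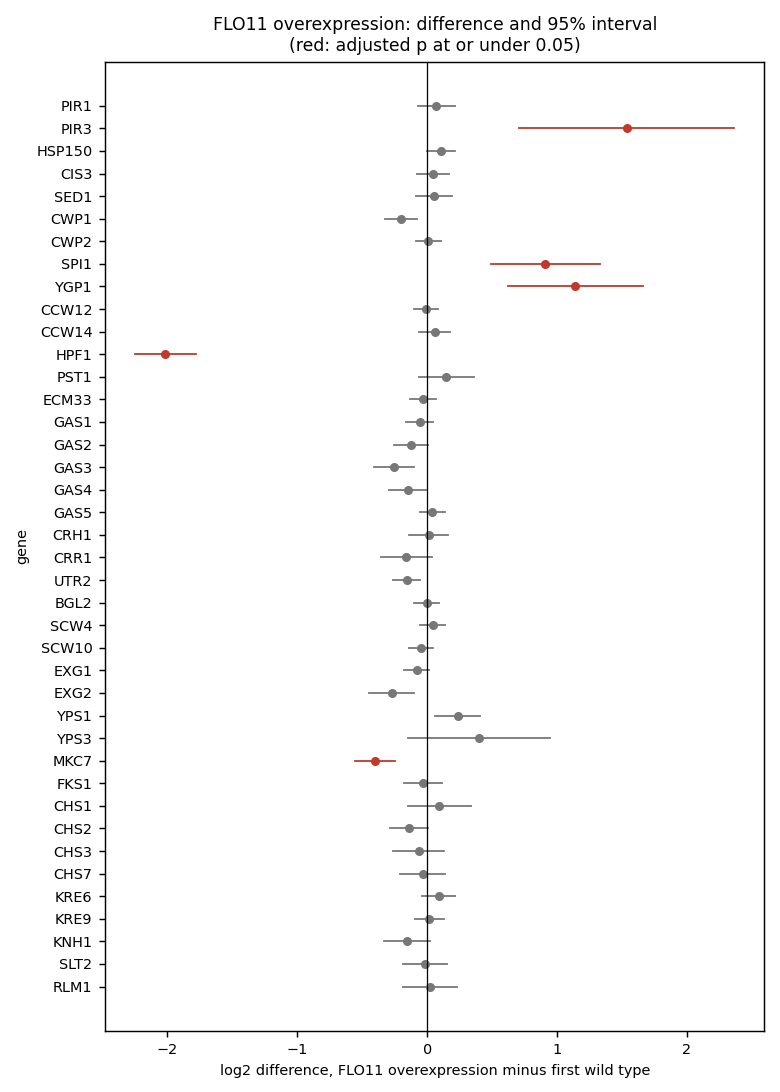
Log2 difference (horizontal axis) between 3 *FLO11* overexpression and 3 first wild type arrays for each of the 40 wall genes (vertical axis), as a point with its 95% interval, red where the adjusted p was at or under 0.05. Red marks 5 genes, *PIR3*, *SPI1* and *YGP1* to the right and *HPF1* and *MKC7* to the left, while most other intervals are short and lie close to 0.

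The remaining comparisons set 1 array against 1 array. They carry no replicate check, and a gene was called different at a 2-fold difference (1 on the log2 scale) with the brighter array above background. The *MSS11*, *FLO8* and deletion arrays and the S288c wild type were all read against the second Σ1278b wild type, so their values share that array. A limma fit over all 12 arrays was used beside them, in which a lone array is assumed to vary as the 2 replicated groups do. The paper itself tested *MSS11* overexpression in both strains and the deletion with replicate cultures. Its list of significant genes for these comparisons holds none of the wall genes described here, whichever of them pass below.

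With extra *MSS11* in Σ1278b, 5 wall genes were higher (5 of 40, against 0.946% of all probe sets) and 0 were lower (against 0.273%). They were 1 PIR protein, *PIR3* at 1.76, and 4 of the 10 GPI and related proteins, *CWP1* at 1.14, *SPI1* at 1.07, *YGP1* at 1.69 and *HPF1* at 2.77. Against the mean of the 4 wild types the same 5 genes were called, with *HPF1* at 1.23. The median difference was 0.09 over the wall genes and 0.01 over all probe sets. In the pooled fit *CWP1* and *HPF1* passed (limma adjusted p = 0.00102 and 0.000243; 2 of 40 against 1.86% of all probe sets) and the other 3 did not (0.110 to 0.351).

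With extra *FLO8*, 4 wall genes were higher (4 of 40, against 0.473%) and 0 lower (against 0.346%). These were *PIR3* at 1.11, *SPI1* at 1.09, *YGP1* at 1.75 and *HPF1* at 1.10, with *CWP1* just short of 2-fold at 0.92. The median was 0.07 against 0.00 over all probe sets. The pooled fit again passed *CWP1* and *HPF1* (limma adjusted p = 0.00565 and 0.0340; 2 of 40 against 1.07%). Against the mean of all 4 wild types *HPF1* with extra *FLO8* was at -0.43, so its direction depends on the wild type array.

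In the *mss11* deletion 2 wall genes were higher, *SPI1* at 1.05 and *YGP1* at 1.29 (2 of 40, against 0.4%), and 0 were lower (against 0.236%). *HPF1* was at -0.38 and *CWP1* at 0.19. Against the mean of the 4 wild types *HPF1* was at -1.92 and became the 1 gene called lower (against 0.491% of all probe sets), beside *SPI1* and *YGP1* as 2 higher (against 0.527%). No wall gene passed the pooled fit (limma, 0 of 40 against 0.728% of all probe sets). The median was 0.03, against 0.00 over all probe sets.

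*SPI1* and *YGP1* were thus higher in the deletion and with extra copies of the same regulator. A direct reading of *MSS11* overexpression against deletion, chosen after the values were seen, leaves the shared wild type out. In it *SPI1* differed by 0.02 and *YGP1* by 0.39, while *HPF1* differed by 3.15 (8.87-fold), *PIR3* by 1.11 and *CWP1* by 0.95. Of the wall genes 2 were 2-fold higher, *PIR3* and *HPF1* (against 1.16%), and 0 were lower (against 0.728%). The pooled fit passed *HPF1*, *CWP1* and, with smaller differences, the transglycosylase gene *UTR2* at 0.44 (limma adjusted p = 0.0194) and *KNH1*, a gene of beta-glucan assembly, at -0.70 (limma adjusted p = 0.0242), 4 of 40 against 5.18% of all probe sets.

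Across the 10 Σ1278b arrays *SPI1* lay between 10.08 and 10.69 in the 4 wild types and between 11.07 and 11.59 on the 6 arrays of manipulated strains (3 of them *FLO11* replicates). *YGP1* lay between 11.07 and 11.93 in the wild types and between 12.55 and 13.20 in the others. *PIR3* lay between 7.66 and 7.97 in the wild types and between 8.31 and 10.31 in the others. In each of these genes every array of a manipulated strain, the deletion included, was above every wild type array, and *HSP150* had the same order within a narrow span of 0.20. The *HSP150* groups barely parted, with the highest wild type at 14.0456 and the lowest manipulated array at 14.0535. The order held in 4 of 40 wall genes against 0.8% of all probe sets, and *GAS3* had the opposite order, 1 of 40 against 0.655%. *GAS3* barely parted too, with its lowest wild type at 12.1057 and its highest manipulated array at 12.0975. The order was noticed after the values were seen and carries no test.

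**Figure D3:**
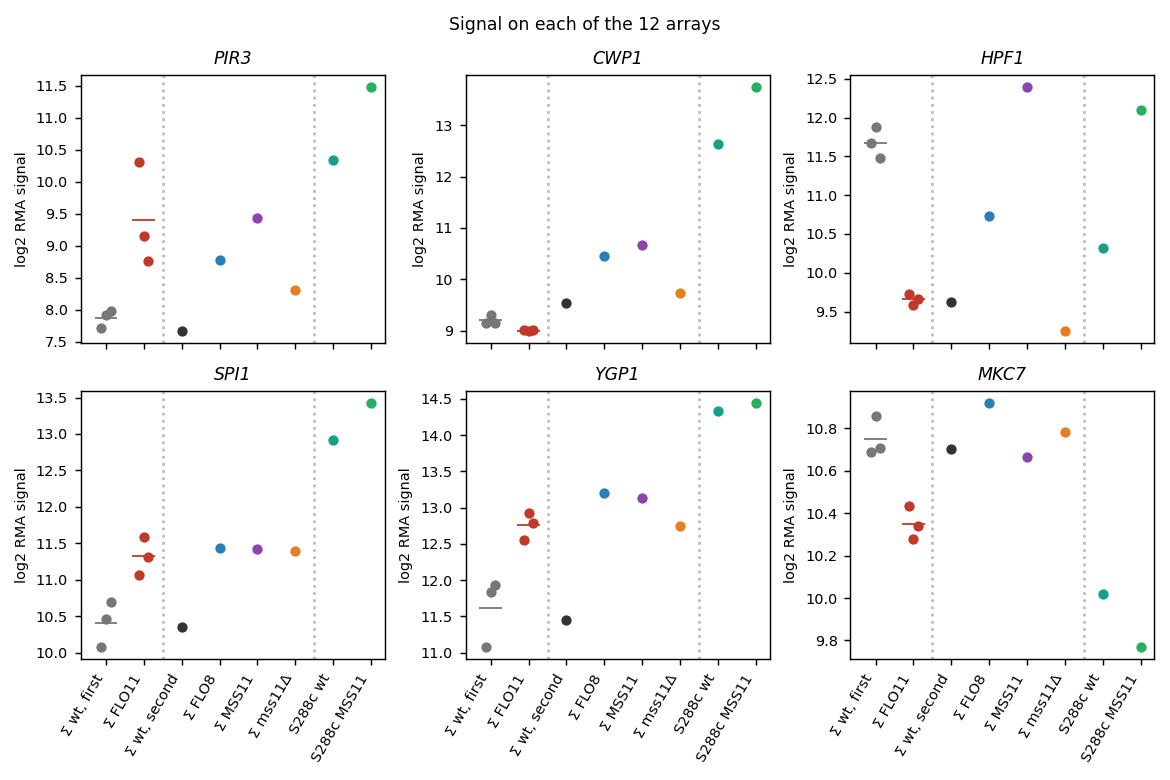
Log2 RMA signal (vertical axis, a separate scale in each panel) of 6 wall genes on each of the 12 arrays, 1 point an array, grouped by strain and construct, with a line at the mean of 3 replicates and dotted lines between the first set, the second Σ1278b set and S288c. *SPI1* and *YGP1* are low in the 4 wild type Σ1278b arrays and higher in the other 6, whereas the second wild type of *HPF1* sits at 9.63 with the *FLO11* arrays.

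*CWP1*, which encodes a GPI wall protein, read 9.16, 9.30 and 9.15 in the first wild types, 9.01, 8.99 and 9.01 with extra *FLO11*, 9.54 in the second wild type, 9.73 in the deletion, 10.46 with extra *FLO8* and 10.67 with extra *MSS11*. The 3 *FLO11* arrays were the lowest of all 12, at a difference of -0.20 that missed the threshold (limma adjusted p = 0.0757, n = 3 each), and the *FLO8* and *MSS11* arrays were the highest of Σ1278b. In S288c it read 12.63 in wild type and 13.75 with extra *MSS11*, both above every Σ1278b array.

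In S288c, extra *MSS11* came with 3 wall genes at least 2-fold higher, *PIR3* at 1.14, *CWP1* at 1.12 and *HPF1* at 1.78 (3 of 40, against 1.24%), and 0 lower (against 0.437%). *HPF1* read 10.32 in wild type and 12.09 with extra *MSS11*. *SPI1* differed by 0.51 and *YGP1* by 0.11 there, where both already stood high in wild type, at 12.92 and 14.33. The pooled fit passed *CWP1* and *HPF1* (limma adjusted p = 0.000655 and 0.00146) and *KNH1* at 0.68 (0.0195), 3 of 40 against 12.4% of all probe sets. The median was 0.04 over the wall genes and -0.02 over all.

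The *MSS11* difference in S288c was set against that in Σ1278b as an interaction in the pooled fit. One wall gene of 40 passed, *KNH1* (against 4.77% of all probe sets), at -0.31 in Σ1278b and 0.68 in S288c, a gap of 0.99 (limma adjusted p = 0.0338). *HPF1* (2.77 and 1.78, limma adjusted p = 0.0652) and *YGP1* (1.69 and 0.11, limma adjusted p = 0.142) did not pass. *KNH1* read 11.04, 10.92 and 10.88 in the first wild types, 10.66, 10.83 and 10.89 with extra *FLO11* and 10.58 in the second wild type. It was 10.11 with extra *FLO8*, 10.27 with extra *MSS11* and 10.97 in the deletion, then 10.07 in S288c wild type and 10.75 in S288c with extra *MSS11*. Within the second Σ1278b set it was thus low in both overexpression arrays and high in the deletion, and in S288c it was higher with extra *MSS11*. The deletion reading of *KNH1*, however, lay inside the range of the first wild types and only 0.12 above the mean of the 4 wild types.

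Between the wild type strains the differences were wider. In S288c 5 wall genes were at least 2-fold higher (5 of 40, against 5.33% of all probe sets) and 0 lower (against 3.27%). *CWP1* was 3.09 higher (8.53-fold), *YGP1* 2.89, *PIR3* 2.68, *SPI1* 2.57 and *YPS3* 1.31. The median was 0.21 over the wall genes and -0.04 over all probe sets. In the pooled fit 22 wall genes passed, 16 higher and 6 lower, against 43.1% of all probe sets. *HPF1*, among the higher genes of that fit, was at 0.69 against the second Σ1278b wild type. Its S288c wild type reading of 10.32 lay below the first Σ1278b wild types, at 11.48 to 11.88, so its direction depends on the wild type array. With extra *MSS11* in both strains the gap was 3.07 for *CWP1*, 2.06 for *PIR3*, 2.01 for *SPI1* and 1.31 for *YGP1*. Sequence differences from the probes and transcript level cannot be told apart between the strains.

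*YPS3*, a yapsin, read 8.90, 9.15 and 9.57 in the first wild types, 9.85, 9.84 and 9.12 with extra *FLO11* and 8.84, 8.63, 9.39 and 9.59 in the second wild type, *FLO8*, *MSS11* and deletion arrays. These overlapped, and both S288c arrays were above them all at 10.15 and 10.28. *PST1*, a GPI protein known to rise on wall damage, was at 12.62 and 12.90 in S288c against 11.72 to 12.48 over the Σ1278b arrays, a difference of 0.83 between the wild types. *MKC7* was lowest in S288c, at 10.02 and 9.77, against 10.66 to 10.92 in the second Σ1278b set.

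The second wild type was set against the mean of the first 3 after the values were seen. Of the wall genes 0 were 2-fold higher (against 0.618%) and 1 was lower, *HPF1* (against 0.928%). The pooled fit passed 4 of 40, *CWP1*, *HPF1*, *GAS4* and *FKS1*, against 18% of all probe sets. *PIR3* differed by -0.21 between the sets, and the part of the set in the *HPF1* values was not tested.

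The 40 genes hold 4 pairs of neighbours in the R64 assembly of the yeast genome. *PIR3* is next to *PIR1* on chromosome XI, *CWP1* next to *CWP2* on the same chromosome, *CIS3* next to *HSP150* on X and *YPS3* next to *YPS1* on XII. *PIR1* spanned 0.62 over the 12 arrays and *PIR3* 3.82, *CWP2* spanned 0.21 and *CWP1* 4.76. *HSP150* and *CIS3*, both PIR proteins, spanned 0.36 and 0.31, and *YPS1* spanned 0.68 where *YPS3* spanned 1.65. So in 3 of the 4 pairs the neighbours had unequal spans, and in the fourth both were narrow. In each of the 3 unequal pairs the gene of narrower span was the brighter on every array. *CWP2* lay between 14.55 and 14.75 where *CWP1* lay between 8.99 and 13.75. The part of signal level in these spans was not tested.

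**Figure D4:**
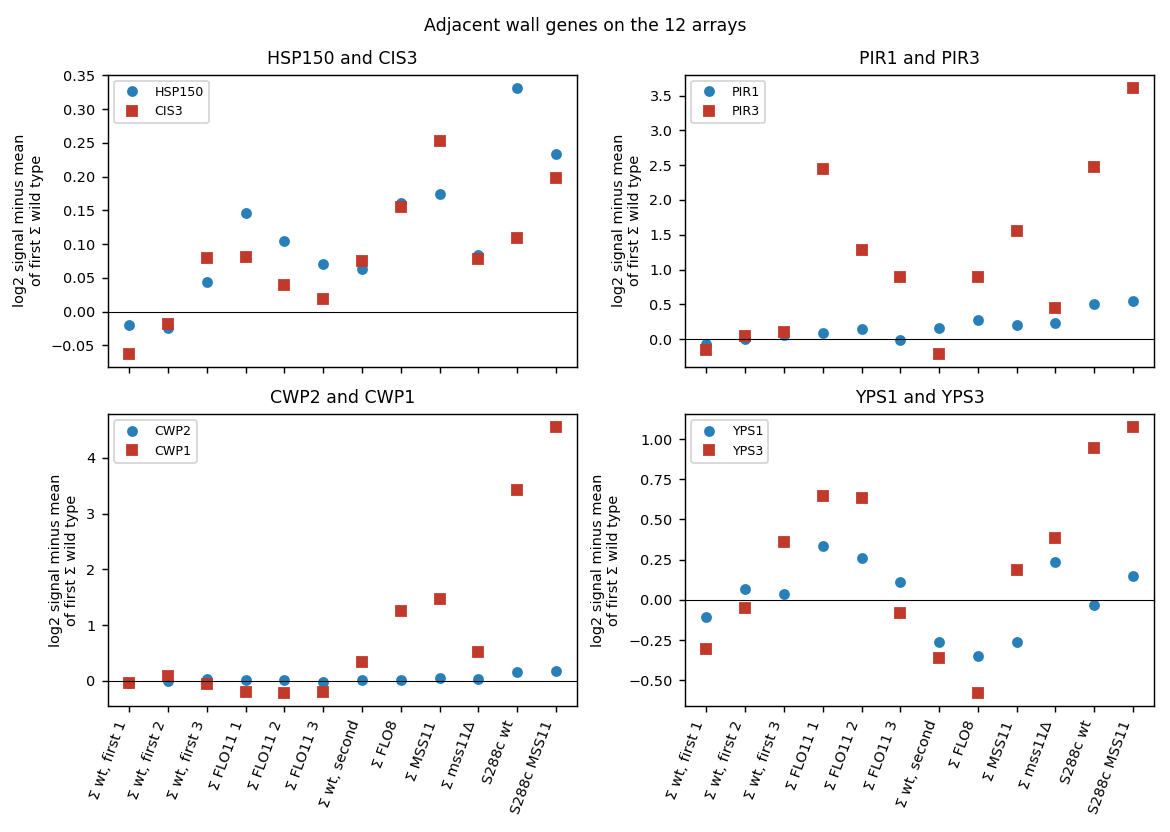
Log2 signal of 4 pairs of adjacent wall genes on the 12 arrays (horizontal axis), each as the difference from its own mean in the 3 first wild types (vertical axis, a separate scale in each panel). *PIR3* and *CWP1* move by several log2 units while *PIR1* and *CWP2* stay within 0.62 and 0.21 over all arrays. *PIR1* and *CWP2* are also brighter than their neighbours on every array, and the part of signal level was not tested.

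The 17 genes that spanned under 0.5 were 2 of 4 PIR proteins, 5 of 10 GPI and related proteins, 2 of 5 Gas elongases, 0 of 3 transglycosylases, 3 of 5 glucanases, 0 of 3 yapsins, 4 of 8 synthases and assembly factors and 1 of 2 regulators. *CCW12*, a small GPI protein, read 15.12, 15.07 and 15.09 in the first wild types, 15.09, 15.09 and 15.08 with extra *FLO11*, and 15.09 to 15.15 on the other 6 arrays, close to the highest signal of each array (15.22 to 15.31), so its narrow span does not show a steady transcript. *SED1*, a GPI protein of stationary-phase cells, read 14.46, 14.49 and 14.62, then 14.53, 14.65 and 14.55, with 14.60 to 14.91 on the rest. *CWP2* read 14.55, 14.58 and 14.61, then 14.60, 14.59 and 14.57, with 14.59 to 14.75 on the rest. Both *SED1* and *CWP2* were also near the top of the signal range, so their narrow spans carry the same limit.

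*CRR1*, *GAS4* and *GAS2* are known for roles in sporulation. *CRR1* read 5.71, 5.42 and 5.57 in the first wild types, 5.50, 5.41 and 5.32 with extra *FLO11* and 5.48 to 6.18 elsewhere, at least 0.45 above background. *GAS4* read 5.84, 5.66 and 5.85, then 5.62, 5.62 and 5.66, with 5.60 to 6.16 elsewhere. *GAS2* read 9.11, 9.10 and 9.15, then 8.96, 9.10 and 8.94, with 8.42 to 9.25 elsewhere. For none of these 3 was the *FLO11* difference past the threshold.

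Among the enzymes, *GAS1*, *SCW4*, *BGL2* and the GPI protein *ECM33* spanned 0.20, 0.18, 0.26 and 0.19 over the 12 arrays. All lay between 14.19 and 14.54, near the top of the signal range, so their narrow spans carry the limit given for *SED1* and *CWP2*. *FKS1*, the catalytic subunit of glucan synthase, spanned 0.60, *CHS1*, *CHS2* and *CHS3*, the chitin synthases, 0.61, 0.46 and 0.46, and *CHS7*, which helps Chs3 leave the endoplasmic reticulum, 0.51. *KRE6* and *KRE9*, of beta-glucan assembly, spanned 0.30 and 0.22. *SLT2* spanned 0.61 and *RLM1* 0.31, and neither was called in any of the 8 comparisons at its main threshold.

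The rest of the wall pathway was read from 4 further lists. Of 22 measured genes of wall integrity signalling, 3 rose with extra *FLO11*, the sensor genes *WSC4* at 0.39 and *MTL1* at 0.22 and the exchange factor gene *ROM1* at 0.36, and 0 fell, beside 3.8% and 2.55% of all probe sets that rose and fell. Of 17 other GPI and secreted proteins, 3 fell, *PRY3* at -0.36, *YPS6* at -0.32 and the phospholipase gene *PLB2* at -0.42. The 17 include *ECM34*, which the paper calls uncharacterized with a suspected wall function. It was listed because the study had reported its response to *MSS11*. None of 20 other chitin and glucan genes and none of 25 mannosyltransferases passed. With 1 array a group, *ECM34* was at 1.77 with extra *MSS11*, 1.49 with extra *FLO8*, -1.25 in the deletion and 1.497 with extra *MSS11* in S288c. No other gene of the 4 lists was 2-fold different in the 3 comparisons with the second Σ1278b wild type. The mannosyl phosphorylation gene *MNN4* at 1.404 was the other one in S288c with extra *MSS11*. For *MSS11* overexpression against deletion, *ECM34* was at 3.03, *WSC4* at 1.25 and *SPS100* at -1.12, beside 1.16% of all probe sets higher and 0.728% lower.

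Between the wild type strains 5.33% of all probe sets were 2-fold higher in S288c and 3.27% lower. Of the lists, 2 of 22 signalling genes, 3 of 20 chitin and glucan genes, 5 of 17 other GPI and secreted proteins and 0 of 25 mannosyltransferases were higher, and 1 mannosyltransferase was lower. The signalling genes *WSC4* (2.51) and *KDX1* (1.99) were higher in S288c. So were the chitinase gene *CTS1* (2.50) and the glucanase genes *DSE4* (1.51) and *SCW11* (2.98), which act in separating daughter from mother cells, with *EGT2* at 1.80 and *PRY3* at 1.83. *YPS6* was 2.35 higher, *SPS100* 2.02 and *PIR5* 1.80, while *MNN4* was at -1.22.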

How the data were processed

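Per the labels, the authors extracted total RNA, hybridised biotin-labelled cRNA and deposited RMA signal for each probe set as linear intensity values, 1 column an array. Log2 of these intensities was taken, and a version of RMA is not given in the sources used here. Of 10928 probe sets, 5498 name 1 *S. cerevisiae* gene (5449 genes), 1747 are *S. pombe* probe sets used for the background, and 3683 were not used. Each of the 40 wall genes had 1 probe set. *FLO11* overexpression was tested with limma 3.58.1 (R 4.3.3), two-sided, adjusted p at most 0.05. The test was also run on simulated data with independent noise drawn from its own variance estimates, which cannot show set or replicate effects. Single arrays were compared by a 2-fold difference, with a pooled limma fit over 12 arrays as an alternative. Other alternatives were the control arrays, normalization, the background filter, moderation, a replicate block and leaving out each array. Values on every array are given for genes past a threshold and for the 3 brightest and 3 dimmest by mean signal. Arrays give no count depth, and their number limits the precision. The genes and lists were chosen with earlier results of these data known, and *ECM34* was listed for its mention in the study. No gene sequence was used here.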

Additional observations from a re-analysis of the deposited data

Results flagged for a closer look

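*KNH1* was flagged because its difference with extra *MSS11* was unlike in the strains, -0.31 in Σ1278b and 0.68 in S288c. As given above, the share of wall genes that passed this interaction was below that of all probe sets. The gap of 0.99 passed the interaction in the pooled limma fit (adjusted p = 0.0338), with 1 array in each of the 4 cells, so the spread was borrowed from the first set.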

How the results depend on the processing

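With extra *FLO11*, 5 wall genes were called. The count was 3 with the replicate number as a replicate block (*SPI1*, *YGP1*, *HPF1*), 3 with all 4 Σ1278b wild types as control (*SPI1*, *YGP1*, *MKC7*), and 1 to 6 when an array was left out. Leaving out wild type replicate 2 gave 1, as did *FLO11* replicate 2; *FLO11* replicate 3 gave 2 and wild type replicate 1 gave 3. *HPF1* was called in all 6 of these. A trended and robust prior gave 6, of other genes in part, with *PIR3* and *YGP1* lost and *GAS3*, *UTR2* and *EXG2* gained. The deviations of same-numbered arrays from their group means had correlations of 0.03, -0.12 and -0.27. With 3 arrays a group these values cannot tell whether same-numbered samples were paired. With extra *MSS11* the count of 5 became 2 in the pooled fit, and with extra *FLO8* 4 became 2. In the deletion 2 became 4 at 1.5-fold and 0 in the pooled fit. Between wild type strains 5 became 9 at 1.5-fold and 22 in the pooled fit, in which small differences can pass. *HPF1* with extra *FLO8* turned to -0.43 against 4 wild types, and with extra *MSS11* it was 1.23 there. The cause of these moves was not tested. Over all alternatives, 175 values of single genes kept direction and side, 30 lost the call, 4 gained it and 1 turned. Of the counts, 25 stayed within 1.5 times, whichever genes they held, and 12 did not. Some alternatives could not differ. The fit over 12 arrays gave the *FLO11* values of the main fit. Dropping the background requirement could not alter wall gene counts, since all wall genes lay above background. Part of the 175 are genes uncalled in the main fit that stayed so. The tally is thus no measure of how firm the calls are. Single arrays limit all comparisons but that of *FLO11*.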
